A study of Homo sapiens with 18 samples.

Results

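SH-SY5Y is a human neuroblastoma cell line, a subline grown from a single clone, and is widely used as a model of sympathetic neurons. Sarin, an organophosphorus nerve agent, inhibits acetylcholinesterase and so lets acetylcholine build up at synapses. The study measured total RNA of these cells on Affymetrix arrays, 3 arrays in each of 6 groups, untreated or exposed to 5 ppm sarin, at 3, 24 and 48 h. Cells exposed to sarin for 24 h (3 arrays) were compared here with untreated cells of the other times, 3 h (3 arrays) and 48 h (3 arrays), each time with equal weight. These are 9 of the 18 arrays. The comparison asks how the 24 h sarin cells differed from untreated cells without reliance on the 24 h controls. In it treatment and time cannot be told apart. For that reason the 24 h controls (3 arrays) were set against the same 3 h and 48 h controls in a fit of their own. That difference is also the difference between the sarin effect measured against other-time controls and against 24 h controls. The labels name 6 flasks beside each group of 3 arrays and do not say which flask gave which array, so p-values measure the spread between arrays, which may be technical.

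Sterol and fatty acid enzymes are switched on together by SREBP factors, which are released from the endoplasmic reticulum when membrane sterols run low. Glycolytic enzymes are controlled in part by hypoxia-inducible factors, whose subunits are marked for degradation when oxygen is plentiful. Cytosolic chaperones, among them the ring-shaped CCT complex that folds actin and tubulin, are induced by heat shock factor. SH-SY5Y cells carry a noradrenergic programme kept up by PHOX2 and HAND factors, with RET signalling and storage of amines and granins in dense-core vesicles.

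The deposited intensity values are linear signals with the same trimmed mean on every array, so each difference below is relative to the other genes on the array. The sarin arrays had a higher 3'-to-5' signal ratio of GAPDH, a sign of RNA or labelling quality, at 1.05 to 1.17 against 0.696 to 0.999 on the 3 h controls and 0.703 to 0.955 on the 48 h controls. For ACTB the ratios were 1.56 to 1.64 on the sarin arrays, 0.79 to 1.14 at 3 h and 1.07 to 1.44 at 48 h. Control replicate 3 of 3 h stood apart, with a highest signal of 162749. The part of these differences in the results was not tested. Of 15 noradrenergic markers measured, 14 were above background on all 9 arrays, and the exception was TH, tyrosine hydroxylase, above it on none. The summed signal of those markers was 148298 to 151382 on the sarin arrays, 121346 to 161565 at 3 h and 131815 to 137659 at 48 h. Markers of substrate-adherent neuroblastoma cells were above background on all 9 arrays for 8 of 10. Their summed signal was 25570.2 to 26704 on the sarin arrays, below the 30214 to 60420.0 at 3 h and the 34258 to 50197 at 48 h. Most of that sum was VIM, which did not pass; the other 9 markers summed to 7347 to 7555 with sarin, 8036 to 8892 at 3 h and 8502 to 9659 at 48 h. Of the glial, leukocyte, endothelial and epithelial markers, S100B, CDH5 and KRT19 were above background on 0 of the 9 arrays, and MBP and PECAM1 on all 9. The others were mixed: GFAP and AIF1 were above it on 5, AQP4, OLIG2 and PTPRC on 3 and EPCAM on 1.

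The 24 h sarin cells differed widely from untreated cells of the other times. Genes of fatty acid and sterol synthesis, cytosolic chaperones, splicing factors and histones were among those that were higher. Glycolytic enzymes, hypoxia-inducible genes, mitotic genes and genes of adhesion, actin and extracellular proteolysis were among those that were lower. For mitotic and actin genes the untreated 24 h controls were also low, with list medians of -0.32 and -0.16 against the other controls. Of 7178 genes tested, 1042 passed an adjusted p under 0.05 (14.5%), 559 of them higher (7.79%) and 483 lower (6.73%). Scaled on spike-in controls instead, which moved the median log2 difference of all genes to -0.34, 35 were higher and 719 lower. With that scaling the median was -0.72 against the 3 h controls alone and 0.05 against the 48 h controls alone. The mean log2 signal of the spike-in controls was 10.3 to 10.8 at 3 h, 11.1 to 11.7 at 48 h and 11.2 to 11.4 with sarin. Spike-in levels thus differed mainly between the 3 h controls and the other 2 groups. Of the 1042 genes past the threshold, 160 also differed at least 2-fold (2.23% of genes tested), 73 of them higher (1.02%) and 87 lower (1.21%). The 3 sarin arrays lay wholly above or below the 6 control arrays for 1370 genes (19.1%), above for 743 (10.4%) and below for 627 (8.74%). They lay outside the range of all 9 control arrays, those of 24 h included, for 888 genes (12.4%), above for 487 (6.78%) and below for 401 (5.59%). Of the 1042 genes past the threshold 653 lay outside all 9 controls in the direction called (9.1% of genes tested), 358 higher (4.99%) and 295 lower (4.11%). The median log2 difference over all genes was 0.01. When 1 sarin array was left out, the count was 426 without replicate 1, 385 without replicate 2 and 538 without replicate 3. In bulk RNA a lower signal from fewer cells of a type and from less RNA per cell cannot be told apart.

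Taken one at a time, the control times gave similar counts. Against the 3 h controls alone 747 genes passed (10.4%), 398 higher (5.54%) and 349 lower (4.86%). The split was 246 and 338 when arrays were centred on the median and 15 and 3348 with spike-in scaling. Against the 48 h controls alone 825 genes passed (11.5%), 424 higher (5.91%) and 401 lower (5.59%). That split was 665 and 217 with median centring and 87 and 48 with spike-in scaling. These counts fell to between 231 and 334 and to between 322 and 456 when a sarin array was left out, and the second was 357 without 48 h control replicate 2, 355 without replicate 3 and 1298 without 3 h control replicate 3. In both, 404 genes passed in the same direction (5.63%), 192 higher (2.67%) and 212 lower (2.95%), and 1 gene, SCD5, passed in opposite directions (0.0139%). Both comparisons use the same sarin arrays, so their likeness is not a result. The 48 h controls differed from the 3 h controls for 21 genes (0.293%).

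**Figure D1:**
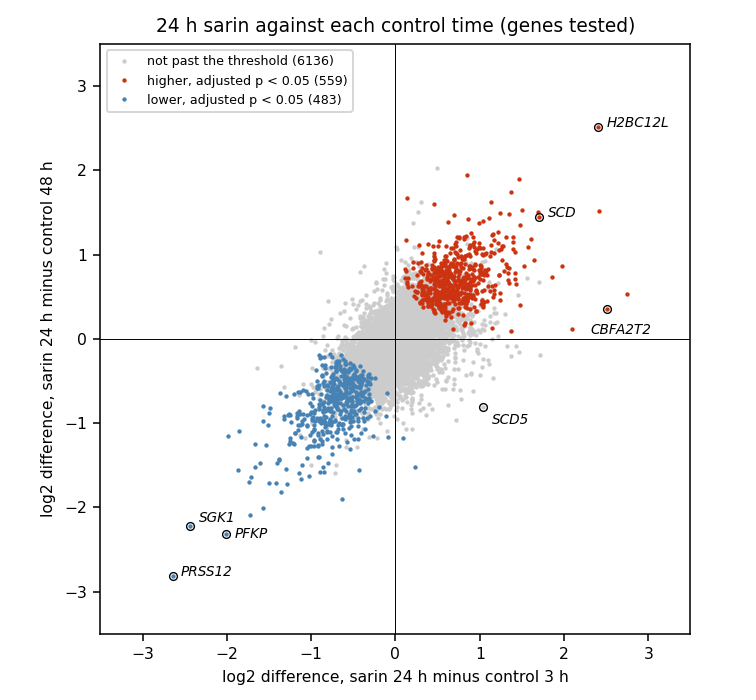
Each point is 1 of 7178 genes tested, with its log2 difference of 24 h sarin against 3 h controls on the x axis and against 48 h controls on the y axis. Red points (559) were higher and blue points (483) lower than the controls of both times weighted equally at an adjusted p under 0.05, and grey points did not pass; both axes share the sarin arrays. PRSS12, SGK1 and PFKP lie low on both axes, CBFA2T2 rests mainly on the 3 h controls and SCD5 changes sign between the control times.

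Some enzymes of fatty acid synthesis were higher after 24 h of sarin, though the list's median turned to -0.17 with spike-in scaling. Of 12 tested genes of this list, 4 were higher (ACACA, ELOVL6, FASN and SCD) and 1 was lower (HACD3), with a median log2 difference of 0.17 against 0.01 over all genes. These were 33.3% and 8.33% of the list, against 7.79% and 6.73% of all genes. SCD, the desaturase that makes monounsaturated fatty acids, gave signals of 3181, 3389 and 2985 on the sarin arrays. The 3 h controls gave 907, 972 and 1051 and the 48 h controls 1469, 1159.9 and 939. All sarin arrays were above all controls, with a log2 difference of 1.57 ± 0.15 (SE) and an adjusted p = 3.25e-05. Among its 4 probe sets 1 pointed the other way, and the call was lost when probe sets were averaged. FASN, the fatty acid synthase, read 3529, 3935 and 4022 with sarin, 1627, 2501 and 1994 at 3 h and 1748, 1854 and 1599 at 48 h. It rose by a log2 difference of 1.04 ± 0.14 (adjusted p = 0.000544), again with no overlap. ELOVL6, which lengthens palmitate, rose by 0.85 ± 0.14 on the log2 scale (adjusted p = 0.00163), with sarin signals of 2099 to 2705 against 903 to 1650.0 in the 6 controls. ACACA, acetyl-CoA carboxylase, varied more among controls, at 649.9, 1059.5 and 251 (3 h) and 388, 225 and 918 (48 h) against 1742, 1301 and 1337 with sarin. Its log2 difference of 1.56 ± 0.43 (adjusted p = 0.0272) missed the threshold without sarin replicate 1, 2 or 3 or 48 h control replicate 2 (adjusted p up to 0.125). HACD3, an elongation dehydratase, fell by 0.76 on the log2 scale (adjusted p = 0.0118, and 0.0929 without sarin replicate 2).

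Several sterol enzymes were higher; with spike-in scaling the median of the late enzymes was 0.20 and that of the early ones turned to -0.06. From acetyl-CoA to squalene 3 of 8 tested genes were higher (ACAT2, FDPS and IDI1) and 0 lower, with a median log2 difference of 0.28. From squalene to cholesterol 5 of 10 were higher (SQLE, MSMO1, TM7SF2, EBP and HSD17B7) and 0 lower, with a median of 0.54. The shares higher were 37.5% and 50%, against 7.79% of all genes. Without sarin replicate 1, 2 and 3 the first list had 2 higher genes each time and the second 3, 3 and 4. HSD17B7, a sterol ketoreductase, read 2420.5, 2707 and 2868 with sarin, 1058, 1279 and 772 at 3 h and 1197, 1186 and 1072 at 48 h. The groups did not overlap, and the gene rose by 1.30 ± 0.16 (log2, adjusted p = 0.000241). ACAT2, the thiolase that starts the pathway, read 4210.0, 4170.3 and 3990.5 with sarin, 2804, 1834 and 2017 at 3 h and 2058, 1659 and 1644 at 48 h. Its log2 difference was 1.07 ± 0.14 (adjusted p = 0.000568). SQLE, the epoxidase that commits squalene to sterols, had higher signals at 3 h (3538, 3739 and 4363) than at 48 h (1883, 2245 and 2822), and sarin arrays at 6344, 5686 and 5901 lay above both, a log2 difference of 1.01 ± 0.14 (adjusted p = 0.000588). TM7SF2, a sterol reductase, rose by 0.87 ± 0.17 (adjusted p = 0.00499). IDI1, the isopentenyl diphosphate isomerase, rose by 0.90 ± 0.19 (adjusted p = 0.00673, and 0.0556 without sarin replicate 1). FDPS and MSMO1 rose by 0.62 ± 0.15 and 0.63 ± 0.17 (adjusted p = 0.0155 and 0.0231), and lost their calls without sarin replicate 2 or 3 (FDPS, up to 0.0937) and without any 1 sarin array (MSMO1, up to 0.132).

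Regulators of the pathway did not move as a group. Of 10 tested 1 was higher (10%, against 7.79% of all genes) and 3 were lower (30%, against 6.73%), with a median of 0.21. Without sarin replicate 1, 2 and 3 there were 0, 1 and 0 lower. LPIN1, a phosphatidate phosphatase under SREBP control, read 4153, 4348 and 4686 with sarin, 1825, 1719 and 1488 at 3 h and 2150.5, 1893 and 1906 at 48 h, a rise of 1.27 ± 0.12 (log2, adjusted p = 3.02e-05). INSIG2, which holds SREBP in the endoplasmic reticulum, fell by 0.92 (adjusted p = 0.0203), and MBTPS2, the protease that frees it, fell by 0.84 (adjusted p = 0.0258). INSIG2 lost its call without sarin replicate 1 or 3 (adjusted p up to 0.13), and MBTPS2 without any 1 sarin array or 48 h control replicate 2 or 3 (up to 0.137). The median of the regulators was -0.13 with spike-in scaling, and with it FASN, ELOVL6, SQLE, TM7SF2, IDI1, FDPS and MSMO1 kept their sign and lost their calls.

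Promoters of the lipid genes were searched for CCAAT, the box bound by NF-Y, a partner of SREBP, on both strands of the 250 bases before to 50 after the start (RefSeq, GRCh38.p14). It was in 6 of 10 lipid genes that were higher (60%), in 38.0% of 6002 promoters of genes tested and in 35.7% of all 27305. It was also in 21 of the 37 tested members of the lipid lists (56.8%), higher or not. CACCCCA, a core of the sterol element, was in 1 of the 10, against 7.11% of genes tested. FASN, ACAT2 and SQLE were not in the promoter table. The promoters of SCD and HSD17B7 are shown because these genes rose most among those with a match; capitals mark CCAAT, or ATTGG where the match is on the other strand, and both lie on the plus strand.
SCD, chr10:100346983-100347282: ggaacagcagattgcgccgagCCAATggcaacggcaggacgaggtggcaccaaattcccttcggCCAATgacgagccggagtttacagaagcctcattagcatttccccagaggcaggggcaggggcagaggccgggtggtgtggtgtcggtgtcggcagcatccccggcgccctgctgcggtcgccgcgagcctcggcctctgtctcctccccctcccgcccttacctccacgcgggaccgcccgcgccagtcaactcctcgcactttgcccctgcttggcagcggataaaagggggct
HSD17B7, chr1:162790452-162790751: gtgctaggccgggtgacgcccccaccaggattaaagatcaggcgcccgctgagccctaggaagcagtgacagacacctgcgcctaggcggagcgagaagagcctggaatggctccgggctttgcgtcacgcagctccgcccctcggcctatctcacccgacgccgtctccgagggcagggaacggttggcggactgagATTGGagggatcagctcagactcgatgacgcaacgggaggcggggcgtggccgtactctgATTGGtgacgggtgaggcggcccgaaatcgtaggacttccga

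**Figure D2:**
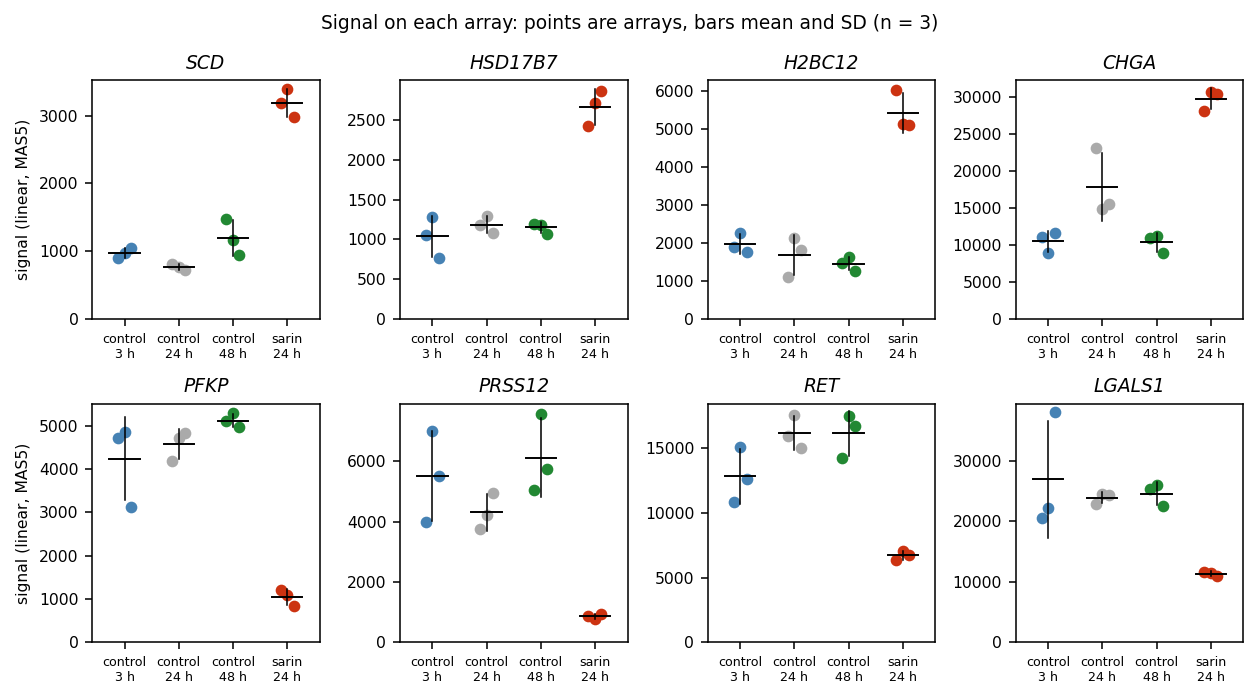
Linear signal of 8 genes on each array of 4 groups (3 h, 24 h and 48 h controls and 24 h sarin), with points for arrays and black bars for the mean and SD (n = 3). SCD, HSD17B7, H2BC12 and CHGA on the sarin arrays lie above all 9 control arrays, and PFKP, PRSS12, RET and LGALS1 lie below them.

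Glycolytic enzymes were lower after 24 h of sarin. Of 12 tested genes of glucose uptake and upper glycolysis, 6 were lower (HK1, GPI, PFKP, ALDOA, ALDOC and TPI1) and 0 higher, with a median log2 difference of -0.65. Of 9 genes of lower glycolysis and lactate, 4 were lower (PGK1, PGAM1, ENO2 and LDHA) and 0 higher, with a median of -0.58. The shares lower were 50% and 44.4%, against 6.73% of all genes. PFKP, the platelet isoform of phosphofructokinase, read 1201, 1099.7 and 831 with sarin, 4721, 4857 and 3129 at 3 h and 5099.6, 5284 and 4967 at 48 h. The groups were far apart, and the gene fell by 2.16 ± 0.16 (log2, adjusted p = 7.29e-06). ALDOC, the brain aldolase, read 815, 964 and 1139.8, 2049, 1568 and 2088 and 2324, 2305 and 2081 in the same order of groups, a log2 difference of -1.09 ± 0.14 (adjusted p = 0.000527). LDHA, which makes lactate, read 13778, 14512 and 13475 with sarin, 21458, 24243 and 38778 at 3 h and 28741, 29051 and 29817 at 48 h. The 3 h array that stood apart held the highest LDHA signal, and all 6 controls were above the sarin arrays, with a log2 difference of -1.02 ± 0.19 (adjusted p = 0.00345). GPI, PGK1, PGAM1 and ENO2, which act between hexokinase and pyruvate, differed by -0.74, -0.86, -0.80 and -0.72 on the log2 scale (adjusted p = 0.000812, 0.00202, 0.00394 and 0.000958), none with overlapping arrays. Without sarin replicate 2 or 3 the upper list had 4 lower genes, and with replicate 2 of the 3 h controls left out the lower list had 6.

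Hypoxia-inducible genes outside glycolysis were mostly lower, 10 of 17 tested, with 1 higher and a median log2 difference of -0.50. These were 58.8% lower and 5.88% higher, against 6.73% and 7.79% of all genes. Without sarin replicate 1, 2 or 3 there were 5 lower. BNIP3, a mitophagy receptor, read 1659, 1676 and 1559.9 with sarin, 2856, 3309.9 and 2506 at 3 h and 3024, 4191 and 4018 at 48 h, a log2 difference of -1.0006 ± 0.135 (adjusted p = 0.000588). EGLN3, an oxygen-sensing prolyl hydroxylase, read 474, 372 and 412, 780.3, 666 and 954 and 1008, 975 and 1033 in these groups, a difference of -1.09 ± 0.17 (adjusted p = 0.00119). P4HA2, a collagen prolyl hydroxylase, differed by -0.92 ± 0.14 (adjusted p = 0.00111). For these 3 genes every sarin array was below every control, those of 24 h included. AK4, a mitochondrial adenylate kinase outside the list and among the 12 largest falls, read 879, 869.7 and 1018 with sarin against 1879.7 to 3735 in the 6 controls, a difference of -1.59 ± 0.16 (adjusted p = 6.95e-05). EPAS1, a hypoxia-inducible factor subunit, fell by 0.74 (adjusted p = 0.00803, and 0.0611 without sarin replicate 2), and its 24 h controls were low as well. ADM, adrenomedullin, overlapped between groups and fell by 0.85 (adjusted p = 0.0304), a call lost without sarin replicate 2 or 3 or 48 h control replicate 2 or 3 (up to 0.182). The higher gene was DDIT4, an inhibitor of mTOR signalling, at 2681, 2458 and 1863 with sarin, 974, 856 and 846 at 3 h and 2636, 2028 and 1892 at 48 h. Its sarin arrays overlapped the 48 h controls, and its log2 difference of 0.73 ± 0.15 (adjusted p = 0.00683) did not pass without sarin replicate 1 or 2 (up to 0.0575), with the 6 controls as 1 group or with spike-in scaling (up to 0.221).

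The promoters of these genes were searched in the same way for ACGTG, the core of the hypoxia element. It was in 10 of the 19 lower genes of the 3 lists that were in the promoter table (52.6%), against 27.4% of genes tested and 21.6% of all promoters. INSIG2, named above among the SREBP regulators, was 1 of the 10. The core was also in 44.1% of the 34 tested members of these lists in the promoter table, lower or not. LDHA and PGK1 are shown because both are classic hypoxia-inducible enzymes with several matches. Capitals mark ACGTG or its reverse complement CACGT, which overlap where the letters are CACGTG; both lie on the plus strand.
LDHA, chr11:18394313-18394612: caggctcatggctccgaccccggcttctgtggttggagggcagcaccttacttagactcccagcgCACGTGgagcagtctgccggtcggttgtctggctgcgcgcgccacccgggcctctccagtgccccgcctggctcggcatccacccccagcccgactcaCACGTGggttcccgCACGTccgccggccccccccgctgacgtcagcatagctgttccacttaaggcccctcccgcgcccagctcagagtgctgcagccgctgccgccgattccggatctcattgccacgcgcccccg
PGK1, chrX:78103998-78104297: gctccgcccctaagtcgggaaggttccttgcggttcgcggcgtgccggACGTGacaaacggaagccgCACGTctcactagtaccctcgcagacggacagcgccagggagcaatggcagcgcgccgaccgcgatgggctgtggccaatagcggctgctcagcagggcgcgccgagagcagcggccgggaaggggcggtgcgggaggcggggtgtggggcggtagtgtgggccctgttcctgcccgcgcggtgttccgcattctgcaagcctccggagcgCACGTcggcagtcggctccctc

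Cytosolic chaperones were higher. Of 23 tested, 12 were higher and 0 lower, with a median log2 difference of 0.47, against 7.79% higher over all genes. Without sarin replicate 1, 2 and 3 the count was 5, 4 and 7, and without 48 h control replicate 2 or 3 it was 8. CCT3, a subunit of the CCT complex, read 22509, 21953 and 21837 with sarin, 14114, 9971 and 12235 at 3 h and 11337, 10032 and 9432 at 48 h. No arrays overlapped, and the log2 difference was 0.9963 ± 0.144 (adjusted p = 0.000812). CCT8, another subunit, rose by 0.9965 ± 0.203 (adjusted p = 0.00637), and CCT5, CCT6A and CCT7 were higher too. STIP1, which links HSP70 to HSP90, read 3542, 3631 and 3319, 2225, 1746 and 1403 and 1811, 1580.3 and 1544 in the same groups, a difference of 1.04 ± 0.14 (adjusted p = 0.000641), but 1 of its 2 probe sets pointed the other way and the call was lost when they were averaged. DNAJB6, an HSP70 co-chaperone, rose by 1.04 ± 0.20 (adjusted p = 0.00433). The list median stayed above 0 with spike-in scaling, at 0.12, while the calls of CCT3, CCT8 and DNAJB6 were lost; that of CCT8 was also lost when probe sets were averaged.

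Chaperones of mitochondria and the endoplasmic reticulum gave some calls. In mitochondria 3 of 19 tested genes were higher (15.8%, against 7.79% of all genes) and 1 lower, with a median of 0.15, or -0.20 with spike-in scaling; 0 were lower without any 1 sarin array. HSPE1, the co-chaperonin of HSP60, read 9621, 9594 and 7929.9 with sarin, 4511, 3733 and 2808 at 3 h and 4024, 3946 and 3776 at 48 h. This was among the clearer rises, at 1.26 ± 0.14 (log2, adjusted p = 0.000165) with no overlap. HSPA9, the mitochondrial HSP70, rose by 0.60 ± 0.11 (adjusted p = 0.00272), with 1 of 3 probe sets opposite in sign. In the endoplasmic reticulum 3 of 19 were likewise higher (15.8%) and 0 lower, with a median of 0.22, or -0.13 with spike-in scaling. Of these, 1 was higher without any 1 sarin array or 48 h control replicate 2 or 3, and 5 without 3 h control replicate 2. The 24 h controls had a median of 0.09 over this list against the other controls, and sarin against the 24 h controls gave 0.04. Over all genes these medians were 0.06 and -0.06. HSPA5, the lumenal HSP70, read 9772, 12005 and 10578 with sarin, 7992, 6387 and 8382 at 3 h and 4546, 4586 and 5278 at 48 h, a rise of 0.84 ± 0.13 (adjusted p = 0.00119). The 24 h controls at 10689.6, 6655 and 6290.4 overlapped the sarin arrays. HSPA9 and HSPA5 lost their calls with spike-in scaling, and HSPA9 also when probe sets were averaged.

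Among 59 splicing factors tested the median was 0.27, or -0.08 with spike-in scaling. Of these, 15 were higher (25.4%, against 7.79% of all genes) and 0 lower. This count rested on all 3 sarin arrays: without replicate 1, 2 and 3 it was 2, 3 and 7, and it was 9 without 48 h control replicate 3. HNRNPM, which binds pre-mRNA, rose by 0.60 ± 0.12 (adjusted p = 0.00497), with sarin signals of 8889 to 9983 against 5422 to 6851 in the 6 controls. CCNL2, a cyclin of splicing speckles, read 1812, 1854 and 1328 with sarin, 656, 649 and 549 at 3 h and 1014, 1068 and 805 at 48 h, a difference of 1.10 ± 0.16 (adjusted p = 0.000905), but its 24 h controls at 1453, 1569 and 1389 reached the sarin range. These controls were 0.94 above the other controls (log2, adjusted p = 0.0174), a departure that did not pass without any 1 of them (up to 0.117) or with spike-in scaling. HNRNPA1 and SF3B2, the latter a subunit of the U2 particle, rose by 0.82 ± 0.18 and 0.67 ± 0.14 (adjusted p = 0.00934 and 0.00782), and were not called without sarin replicate 1 (HNRNPA1, 0.0556) or without replicate 1 or 2 (SF3B2, up to 0.0596). HNRNPM, HNRNPA1 and SF3B2 lost their calls with spike-in scaling.

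Histone genes gave the 3 largest rises of all genes tested. Of 11 on the histone list, 3 were higher (27.3%, against 7.79% of all genes) and 0 lower. The list median was 0.37, or 0.02 with spike-in scaling, and the 3 calls held without each of the 9 arrays. H2BC12 read 6047, 5143 and 5106 with sarin, 1899.9, 2272 and 1757 at 3 h and 1487, 1631 and 1271 at 48 h, a log2 difference of 1.68 ± 0.13 (adjusted p = 9.89e-06). H2BC5 read 2303, 2442 and 2293, 797, 946 and 789 and 981, 905 and 883 in these groups, a difference of 1.41 ± 0.13 (adjusted p = 2.99e-05). H2AC6 rose by 1.37 ± 0.23 (adjusted p = 0.00217). In all 3 the sarin arrays were above all 9 controls. Outside the list, H2BC12L read 1930.1, 1084 and 1440.4 with sarin against 207 to 317 in the 6 controls, the largest rise at 2.46 ± 0.24 (adjusted p = 4.29e-05). H4C11 rose by 1.96 ± 0.44 (adjusted p = 0.00963), a call lost without sarin replicate 1 or 3 (up to 0.0551). Histone genes of one type are near-identical in sequence, so a probe set may read several copies and these are uncertain as single genes.

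**Figure D3:**
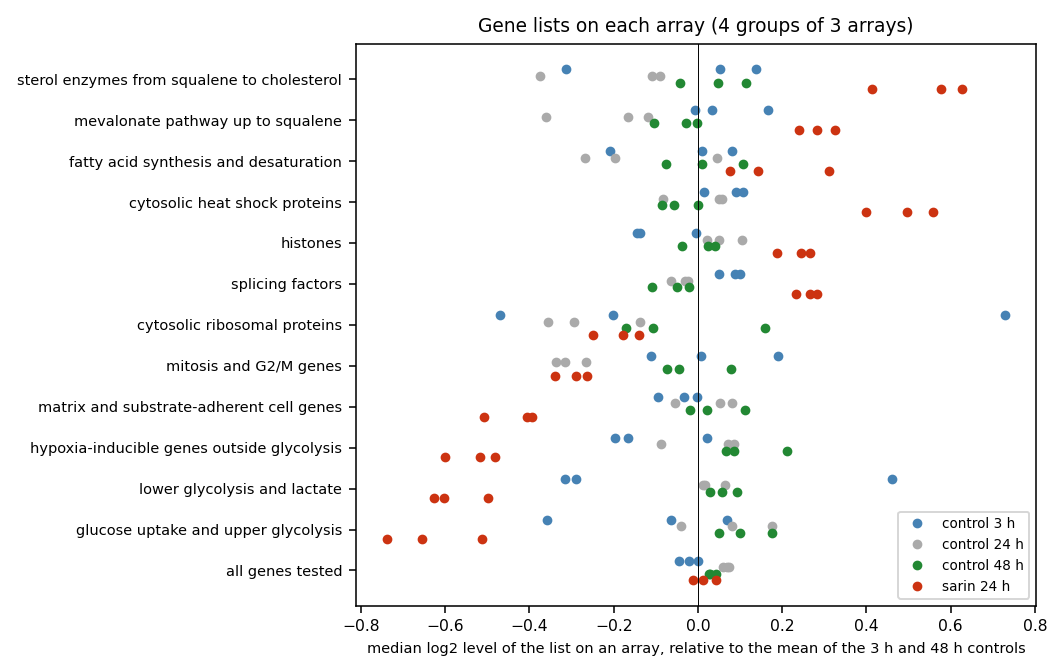
Median log2 level of 12 gene lists and of all genes tested on each array, relative to the mean of the 3 h and 48 h controls, with colours for the 4 groups of 3 arrays. The sarin arrays (red) lie right of the controls for sterol enzymes and heat shock proteins and left of them for glycolysis, hypoxia-inducible and matrix genes, while for mitotic genes they lie among the 24 h controls.

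Genes of noradrenergic identity moved in both directions. CHGA, chromogranin A of dense-core vesicles, read 28133, 30671 and 30415 with sarin, 11054, 8909 and 11603 at 3 h and 10928, 11249 and 8931 at 48 h, a rise of 1.52 ± 0.15 (log2, adjusted p = 4.29e-05). The 24 h controls, at 23062, 14833 and 15471, lay between the other controls and the sarin arrays. RET, the receptor of glial cell line-derived neurotrophic factor, read 6398, 7082 and 6758, 10847, 15086 and 12626 and 14223, 17534 and 16717 in the groups sarin, 3 h and 48 h, a fall of 1.09 ± 0.14 (adjusted p = 0.000435). INSM1, a zinc finger factor of neuroendocrine cells, read 358, 423 and 365 with sarin, 592, 679 and 829 at 3 h and 972, 1159 and 1158 at 48 h. It fell by 1.19 ± 0.17 (adjusted p = 0.000812), and like RET it was below all 9 controls.

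By list, 4 of 11 tested granins and neuropeptides were higher (36.4%) and 2 lower (18.2%), with a median of -0.05. Over all genes 7.79% were higher and 6.73% lower. The list had 2 higher without sarin replicate 1 or 3 and 4 lower without 3 h control replicate 2. The lower ones were GAL, the neuropeptide galanin, at -0.65 ± 0.12 (adjusted p = 0.00414; 1 of 2 probe sets was opposite in sign, and the call was lost at 0.355 when they were averaged), and PAM, which amidates neuropeptides, at -0.68 ± 0.13 (adjusted p = 0.00406). Of 12 noradrenergic transcription factors, 1 was higher (8.33%) and 4 were lower (33.3%), with a median of 0.03. Without sarin replicate 1, 2 and 3 there were 1, 1 and 2 lower, with 2 higher without 3 h control replicate 3. HAND1 read 8420.3, 7503 and 6663 with sarin, 4882, 4526 and 7297 at 3 h and 2412, 2536 and 2449 at 48 h, a difference of 1.03 ± 0.15 (adjusted p = 0.000812), and the 3 h controls overlapped the sarin arrays. PHOX2A and TBX2 fell by 0.60 and 0.58 (adjusted p = 0.0117 and 0.0109), calls lost without any 1 sarin array (PHOX2A, up to 0.0693) or without replicate 1 or 2 (TBX2, up to 0.0614). Of 10 genes of catecholamine synthesis and transport, 2 were higher (20%) and 1 lower (10%), with a median of 0.28, or -0.06 with spike-in scaling. Only 1 was higher without any 1 sarin array or 48 h control replicate 2 or 3. The 24 h controls had a list median of 0.27 against the other controls, and sarin against the 24 h controls gave -0.03. Over all genes these medians were 0.06 and -0.06. SLC18A1, a vesicular monoamine transporter, fell by 0.64 (adjusted p = 0.00637), and SLC6A2, the noradrenaline transporter, rose by 0.67 ± 0.14 (adjusted p = 0.00627). DBH, which makes noradrenaline from dopamine, rose by 0.47 ± 0.13 (adjusted p = 0.0245), but not without any 1 sarin array or 48 h control replicate 2 or 3 (up to 0.113). ALK, a receptor kinase often mutated in neuroblastoma, rose by 0.98 ± 0.25 (adjusted p = 0.0178), but not without sarin replicate 1 or 2 (up to 0.107). HAND1, SLC6A2, DBH and ALK lost their calls with spike-in scaling.

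Cholinergic genes include the direct targets of sarin. Of 9 tested, 0 were higher and 0 lower, with a median of -0.20, in limma's fit; at an unadjusted p under 0.05 there were 0 higher and 3 lower, where 29.5% of all genes passed. Without 3 h control replicate 3 or 48 h control replicate 1 there was 1 lower. ACHE, acetylcholinesterase, was too weak to be tested, at 45.3, 37.9 and 109 with sarin, 216, 105 and 247 at 3 h and 395, 142 and 191 at 48 h. The sarin arrays were not above background, so the controls' mean was at least 1.69-fold higher. CHRNA3, a nicotinic receptor subunit, read 14498, 13589 and 13412 with sarin, 13322, 13984 and 22424 at 3 h and 10416, 11387 and 11088 at 48 h, a difference of 0.06 ± 0.17 (adjusted p = 0.867). CHRM3, a muscarinic receptor, differed by -0.51 ± 0.17 (adjusted p = 0.067) and CHRNB1, another nicotinic subunit, by -0.42 ± 0.15 (adjusted p = 0.0762). CHRM3 passed with spike-in scaling, with array weights and without 3 h control replicate 3 or 48 h control replicate 1 (down to 0.00758), and CHRNB1 with array weights and in the fit of 15 arrays (down to 0.0162). BCHE, butyrylcholinesterase, at 1106, 1633 and 1557 with sarin, 1354, 1828 and 1342 at 3 h and 2038, 2302 and 2224 at 48 h, did not pass either (-0.36 ± 0.16, adjusted p = 0.145). PNPLA6, the neuropathy target esterase, differed by 0.25 ± 0.17 (adjusted p = 0.363). Among 15 hydrolases known to bind organophosphates 1 was lower (6.67%, against 6.73% of all genes). This was APEH, an acylpeptide hydrolase, which fell by 0.59 (adjusted p = 0.0111), a call lost without sarin replicate 2 or 3 (up to 0.0758).

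The largest fall was that of PRSS12, neurotrypsin, a secreted protease that cleaves agrin at synapses. It read 875, 777 and 929.5 with sarin, 3997, 6995 and 5525 at 3 h and 5052, 7571 and 5750.4 at 48 h, a log2 difference of -2.73 ± 0.17 (adjusted p = 3.34e-06), and all sarin arrays were below all 9 controls. Of 15 genes of extracellular protease control 5 were lower (33.3%, against 6.73% of all genes) and 0 higher (median -0.24). Without sarin replicate 1, 2 and 3 there were 2, 2 and 3 lower, as there were 3 without 48 h control replicate 2 or 3. ADAMTS1, a matrix metalloprotease, fell by 0.92 (adjusted p = 0.00101). TFPI2, a secreted inhibitor of serine proteases outside the list and among the 12 largest falls, read 4319, 4769 and 4009 with sarin against 10922 to 17846 in the 6 controls, a difference of -1.71 ± 0.14 (adjusted p = 1.12e-05). CTSB, a lysosomal cysteine protease, read 1853, 2054 and 1782 with sarin, 6042, 4806 and 7443 at 3 h and 4323, 4620.5 and 4539 at 48 h, a difference of -1.46 ± 0.14 (adjusted p = 3.25e-05). Of the 36 lysosome and autophagy genes it belongs to, 5 were lower (13.9%) and 1 higher (2.78%), with a median of 0.02. Over all genes 6.73% were lower and 7.79% higher. In the list 1 was lower without any 1 sarin array and 2 without 48 h control replicate 2 or 3. There were 3 higher without 3 h control replicate 2.

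Genes of the matrix and of substrate-adherent cells were lower, 8 of 28 tested against 1 higher, with a median of -0.40. These were 28.6% and 3.57%, against 6.73% lower and 7.79% higher over all genes. Without sarin replicate 1, 2 and 3 there were 6, 4 and 5 lower, and 0 higher without any 1 sarin or 48 h array. LGALS1, galectin-1, read 11696, 11445 and 10965 with sarin, 20582, 22217 and 38125 at 3 h and 25366, 25994 and 22513 at 48 h, a difference of -1.15 ± 0.19 (adjusted p = 0.00185). ANXA2, a membrane-binding annexin, and its partner S100A10 differed by -1.15 ± 0.17 and -1.08 ± 0.19 (adjusted p = 0.000793 and 0.00223). In these 3 genes no sarin array reached a control. TAGLN2, a transgelin, fell by 0.95 (adjusted p = 0.00906, and 0.0685 without sarin replicate 3). VIM, vimentin, lay below all controls at 18341, 18015 and 19315 against 22178 to 52122, but its difference of -0.75 ± 0.25 did not pass (adjusted p = 0.0591). It passed under 7 of the alternatives, among them spike-in scaling, quantile normalization and leaving out 3 h control replicate 2 or 3 (adjusted p down to 0.00131). Of the 10 substrate-adherent markers 6 were tested, VIM among them, and 0 passed in limma's fit (2 at an unadjusted p under 0.05, each lower).

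Actin and focal adhesion genes were lower in 6 of 29 (20.7%) and higher in 1 (3.45%), with a median of -0.18. Over all genes 6.73% were lower and 7.79% higher. In the list 0 were higher without any 1 sarin or 48 h array, and 2 without 3 h control replicate 2. The list median of the 24 h controls was also low, at -0.16 against the other controls, and sarin against the 24 h controls gave -0.08. Over all genes these medians were 0.06 and -0.06. ZYX, zyxin of focal adhesions, read 926, 898 and 892 with sarin, 3203, 2885 and 3818 at 3 h and 2144, 1813 and 1869 at 48 h, a difference of -1.48 ± 0.13 (adjusted p = 1.85e-05). ARPC5, a subunit of the actin-branching Arp2/3 complex, read 2994, 2889 and 2434, 5446, 7015 and 7505 and 6189, 6914 and 6132 in these groups, a difference of -1.23 ± 0.13 (adjusted p = 8.97e-05). VCL, vinculin, differed by -1.01 ± 0.17 (adjusted p = 0.00188), a call lost when its 2 probe sets were averaged. For ZYX and VCL the 3 h controls were the highest of the groups. Outside the list, SGK1, a kinase induced by serum and glucocorticoids, read 161, 177 and 210.1 with sarin, 1090.3, 792 and 1095 at 3 h and 834, 846 and 857 at 48 h, the fall next in size to PRSS12 at -2.33 ± 0.19 (adjusted p = 1.23e-05). Its 24 h controls, at 362, 414 and 668, were also below the other controls.

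Mitotic genes were lower, 7 of 34 tested (20.6%, against 6.73% of all genes) with 0 higher and a median of -0.30. Without sarin replicate 1, 2 and 3 there were 4, 4 and 5 lower, and without 3 h control replicate 3 there were 12. MKI67, a marker of cycling cells, read 1307, 1204 and 1127 with sarin, 2062, 2081 and 1771 at 3 h and 1539, 2019.9 and 2224 at 48 h, a difference of -0.68 ± 0.14 (adjusted p = 0.00677). CENPA, the centromeric histone, and KIF2C, a mitotic kinesin, differed by -0.85 ± 0.13 and -0.73 ± 0.14 (adjusted p = 0.00123 and 0.00557). DLGAP5, a spindle protein, fell by 0.78 (adjusted p = 0.00832, and 0.0614 without sarin replicate 1). The 24 h controls were low as well: against them the sarin arrays had a median log2 difference of 0.00 over this list, and the 24 h controls one of -0.32 against the other controls. Over all genes these medians were -0.06 and 0.06. Among 39 DNA replication genes 3 were higher and 3 lower (7.69% each, against 7.79% and 6.73% of all genes), with a median of -0.04. Without sarin replicate 1, 2 and 3 there were 1, 0 and 2 higher and 0, 1 and 2 lower. CDKN1A, an inhibitor of the cell cycle, at 1435, 1511 and 1756 with sarin, 2349, 1109 and 1971 at 3 h and 1776, 1317 and 1215 at 48 h, differed by -0.00 ± 0.21 (adjusted p = 0.997). Of 15 p53 response genes 1 was higher and 1 lower (6.67% each, against 7.79% and 6.73% of all genes), with a median of 0.14. There were 0 higher without any 1 sarin array or 48 h control replicate 2 or 3 and 2 higher without 3 h control replicate 2 (2 lower without replicate 3). The lower gene was TP53I3, a quinone oxidoreductase, at -0.69 ± 0.12 (adjusted p = 0.00309).

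Among other stress genes, 4 of 20 of the ATF4 amino acid response were higher (20%, against 7.79% of all genes) and 1 lower (median 0.12, or -0.22 with spike-in scaling). Of these, 2 were higher without sarin replicate 1 or 2, and 0 lower without any 1 sarin array or 48 h control replicate 2 or 3, while 2 were lower without 3 h control replicate 2. The 24 h controls had a list median of 0.10 against the other controls, and sarin against the 24 h controls gave -0.06. Over all genes these medians were 0.06 and -0.06. SLC7A5, a leucine transporter, read 1974, 1899.7 and 2446 with sarin, 1041, 976 and 665 at 3 h and 1228, 967 and 842 at 48 h, a rise of 1.16 ± 0.18 (adjusted p = 0.00109). MTHFD2, a mitochondrial folate enzyme, rose by 0.54 ± 0.11 (adjusted p = 0.00572), a call lost with spike-in scaling. Of 31 antioxidant and NRF2 genes 1 was higher and 5 lower (16.1%, against 6.73% of all genes; median 0.04), with 1, 2 and 1 lower without sarin replicate 1, 2 and 3, 3 lower without 48 h control replicate 2 or 3, and 3 higher without 3 h control replicate 2. NQO1, a quinone reductase, and TXNRD1, thioredoxin reductase, fell by 0.52 and 0.51 (adjusted p = 0.0187 and 0.00842), calls lost without any 1 sarin array (NQO1, up to 0.1) or without replicate 1 or 3 (TXNRD1, up to 0.0644). HMOX1, haem oxygenase, was above all 6 controls at 709, 531 and 604 against 191 to 523, but did not pass (0.70 ± 0.27, adjusted p = 0.0968). FOS, an immediate early gene, was too weak to be tested, with no sarin or 48 h array above background; the 3 h controls read 244, 261 and 128.

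In the neuronal lists, calcium signalling had 7 of 23 genes lower (30.4%) and 1 higher (4.35%), with a median of 0.00. Over all genes 6.73% were lower and 7.79% higher. Without sarin replicate 1, 2 and 3 the list had 2, 3 and 3 lower, and 4 without 48 h control replicate 2 or 3. The 24 h controls had a list median of 0.30 against the other controls, and sarin against the 24 h controls gave -0.27. Over all genes these medians were 0.06 and -0.06. PLCB1, a phospholipase, and CAMK2G, a calmodulin-dependent kinase, fell by 0.67 and 0.70 (adjusted p = 0.00408 and 0.00572), and both calls were lost when probe sets were averaged. The leak potassium channels KCNK1 and KCNK3 went in opposite directions. KCNK1 read 285, 293 and 377 with sarin against 501 to 850.4 in the 6 controls, a difference of -1.04 ± 0.21 (adjusted p = 0.00621). KCNK3 read 918, 948 and 999 against 312 to 595, a difference of 1.04 ± 0.23 (adjusted p = 0.00936, and 0.0527 without sarin replicate 2); its call was also lost with spike-in scaling. DYNC1H1, the heavy chain of the dynein motor, rose by 1.02 ± 0.15 (adjusted p = 0.000812), a call lost with spike-in scaling, and DPYSL3, a regulator of growth cones, fell by 0.92 ± 0.17 (adjusted p = 0.00329). Of 18 synaptic vesicle genes 0 were higher and 0 lower in limma's fit (median 0.08), and 2 were higher and 1 lower at an unadjusted p under 0.05.

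Among the large housekeeping lists, 3 of 60 oxidative phosphorylation genes were higher and 3 lower (5% each, median 0.00). Over all genes 7.79% were higher and 6.73% lower. With 1 array left out the list had 1 to 6 higher and 0 to 4 lower. NDUFS3, a subunit of complex I, rose by 0.73 ± 0.13 (adjusted p = 0.00272). Of 44 mitochondrial ribosomal proteins 3 were higher (6.82%) and 1 lower (2.27%), with a median of 0.04, or -0.31 with spike-in scaling. Without 3 h control replicate 2 there were 5 higher. MRPL9 and MRPL20 were among the higher, at 0.73 ± 0.11 and 0.75 ± 0.13 (adjusted p = 0.00104 and 0.002). NDUFS3, MRPL9 and MRPL20 lost their calls with spike-in scaling. Of 51 cytosolic ribosomal proteins 0 were higher and 2 lower (3.92%, against 6.73% of all genes), with a median of -0.20. Without any 1 sarin array 0 were lower, and without 3 h control replicate 1, 2 and 3 there were 4, 6 and 8. Replicate 3 stood apart, and without it the list median was -0.005. With quantile normalization the median was -0.035. The 24 h controls had a list median of -0.26 against the other controls, and sarin against the 24 h controls gave 0.10. Over all genes these medians were 0.06 and -0.06. RPL30 read 24648, 23339 and 24036 with sarin, 35344, 41325 and 71896 at 3 h and 44887, 44803 and 41789.9 at 48 h, a difference of -0.92 ± 0.22 (adjusted p = 0.0146, and up to 0.0869 without 1 sarin array). Of 34 proteasome subunits 4 were higher (11.8%, against 7.79% of all genes) and 0 lower (median 0.09, or -0.25 with spike-in scaling). Without sarin replicate 1, 2 and 3 there were 0, 0 and 1 higher, and without 48 h control replicate 2 and 3 there were 1 and 2.

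Several of the largest differences lay outside the lists. LAMP5, a lysosome-related membrane protein of neurons, read 5020.4, 4933 and 5114 with sarin, 1714, 1185 and 1836 at 3 h and 1686, 1802 and 1813 at 48 h, a rise of 1.60 ± 0.14 (log2, adjusted p = 2.05e-05). SERINC5 and FLRT3, a membrane protein and an axon guidance receptor, rose by 1.42 ± 0.20 and 1.41 ± 0.16 (adjusted p = 0.000648 and 0.000144). In these 3 the sarin arrays were above all 9 controls. CLDN15, a claudin, rose by 1.40 ± 0.38 (adjusted p = 0.0268), but not without any 1 sarin array or 48 h control replicate 1 or 3 (up to 0.118). CBFA2T2, a transcriptional co-repressor, read 787, 855 and 952 with sarin, 434, 68.9 and 115 at 3 h and 711, 683 and 626 at 48 h. Its log2 difference of 1.44 ± 0.42 (adjusted p = 0.0344) came mostly from low 3 h signals, and was not called without any 1 sarin or 48 h array (up to 0.125).

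On the lower side, C7, a complement component, read 669, 554 and 639 with sarin, 2248, 1780.0 and 2126 at 3 h and 2392, 2997 and 2548 at 48 h, a difference of -1.91 ± 0.14 (adjusted p = 6.75e-06). PTGER2, a prostaglandin receptor, differed by -1.78 ± 0.20 (adjusted p = 0.000135) and ODAM, a secreted protein of dental epithelium, by -1.67 ± 0.19 (adjusted p = 0.000135). In all 3 genes the 24 h controls were above the sarin arrays and below the mean of the other controls, at 1019.6, 790.1 and 899 for C7, 996, 1081 and 1181 for PTGER2 and 678, 624 and 670.1 for ODAM. For C7 the 24 h controls differed by -1.37 from the other controls (adjusted p = 0.000624), and this departure passed without each single array. SLC6A15, a neutral amino acid transporter, read 366, 481 and 245 with sarin against 741 to 1319.6 in the 6 controls and differed by -1.60 ± 0.24 (adjusted p = 0.000905). B4GALT6, which makes lactosylceramide, differed by -1.60 ± 0.31 (adjusted p = 0.00497). CDH11, a mesenchymal cadherin, read 586, 602 and 684 with sarin, 1329, 1819 and 1879 at 3 h and 1584, 2267 and 2384 at 48 h, a difference of -1.56 ± 0.17 (adjusted p = 9.37e-05). PDGFRA, a receptor kinase on the list of glial and other cell type markers, fell by 1.54 ± 0.27 (adjusted p = 0.00234), with 1 of 3 probe sets opposite in sign.

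The 24 h controls differed from the 3 h and 48 h controls for 56 of 7178 genes (0.78%), 31 higher (0.432%) and 25 lower (0.348%). The split was 25 and 601 with median centring and 0 and 13 with spike-in scaling. The count was 10, 4 and 17 without 24 h control replicate 1, 2 and 3, 26, 161 and 269 without 3 h control replicate 1, 2 and 3, and 18 and 24 without 48 h control replicate 2 and 3. By level the difference had a slope: the median log2 difference of the 24 h controls was 0.41 in the 10% of genes with the lowest levels and -0.16 in the 10% with the highest. Over all genes the median of the 24 h controls was 0.06, and the list medians given for them were not adjusted for this slope. For 24 h sarin against the same controls the medians of the 10 level groups lay between -0.04 and 0.06. The median signal of the 24 h control arrays was 397.5 to 414.5, above the 316 to 346 of the sarin arrays.

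**Figure D4:**
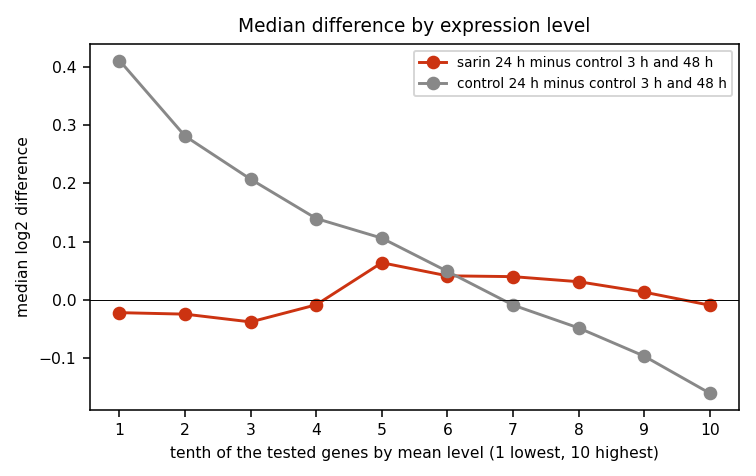
Median log2 difference from the 3 h and 48 h controls (y axis) in 10 equal groups of the genes tested ordered by mean level (x axis, 1 lowest), for 24 h sarin in red and 24 h controls in grey. The grey line falls from 0.41 to -0.16 while the red line stays between -0.04 and 0.06.

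Of the 1042 genes past the threshold, 54 had the opposite sign when 24 h sarin was set against the 24 h controls (0.752% of genes tested), 28 higher (0.39%) and 26 lower (0.362%). For 17 of them the departure of the 24 h controls passed as well. The sarin differences from the 24 h controls were not themselves tested. CHGB, chromogranin B, read 12238, 12199.8 and 10566 on the 24 h controls, 3786, 3860.0 and 3482 at 3 h, 3655, 3795 and 3831 at 48 h and 5589.7, 5588 and 6069.7 with sarin. The sarin cells were thus 0.62 ± 0.10 above the other times (log2, adjusted p = 0.00196), a call lost with spike-in scaling, and differed by -1.02 from the 24 h controls, which were 1.64 ± 0.12 above the other controls (adjusted p = 1.23e-05). PTPRO, a receptor tyrosine phosphatase, read 9074, 8659 and 7375 on the 24 h controls, 3407, 3795 and 4615 at 3 h, 3071, 4339.5 and 3864 at 48 h and 6503, 7398 and 6827 with sarin. Here both 24 h groups were above the other controls, by 1.13 ± 0.15 without sarin (adjusted p = 0.00394) and 0.86 ± 0.14 with it (adjusted p = 0.00156). SLC35E1, a putative sugar nucleotide carrier, did the same, at 1.05 ± 0.15 and 0.90 ± 0.16 (adjusted p = 0.0064 and 0.00256); 1 of its 3 probe sets pointed the other way. The differences with and without sarin share the 3 h and 48 h controls. With spike-in scaling neither the departures of CHGB, PTPRO and SLC35E1 passed nor the sarin differences of PTPRO (0.189) and SLC35E1 (0.144), and the latter also did not pass with averaged probe sets. That of PTPRO also did not without 24 h control replicate 2 (0.0518), nor that of SLC35E1 without 24 h control replicate 1 or 2 (up to 0.0778).

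KCTD12, an auxiliary subunit of GABA-B receptors, was low in both 24 h groups. It read 758, 789 and 534 on the 24 h controls and 915, 909 and 688 with sarin, against 2684, 4187 and 3170.1 at 3 h and 1314, 2281 and 2092 at 48 h. The log2 differences from the other controls were -1.85 ± 0.20 without sarin (adjusted p = 0.000629) and -1.57 ± 0.19 with it (adjusted p = 0.000271). SNHG32, a small nucleolar RNA host gene, and EPAS1 were also low in both 24 h groups, at -1.11 ± 0.16 and -0.88 ± 0.16 without sarin (adjusted p = 0.00709 and 0.0275) and -1.02 ± 0.15 and -0.74 ± 0.16 with it (adjusted p = 0.000958 and 0.00803). The departure of SNHG32 did not pass without 24 h control replicate 2 or 3 (up to 0.0659), and that of EPAS1 not without any 1 of the 24 h controls, 3 h control replicate 1 or 48 h control replicate 3 (up to 0.125). Other genes differed in the 24 h controls but did not pass with sarin. MYC, a growth regulator, read 602, 452 and 646 on the 24 h controls, 1849, 1444 and 1334 at 3 h, 1186, 1030.2 and 1056 at 48 h and 1514, 1448 and 1417 with sarin, a departure of -1.20 ± 0.17 for the 24 h controls (adjusted p = 0.0064, and 0.0673 without their replicate 2) and of 0.18 ± 0.14 for sarin (adjusted p = 0.421). CDCA8, of the chromosomal passenger complex, departed by -1.99 ± 0.22 on the 24 h controls (adjusted p = 0.000629), while its sarin arrays at 1634, 1756 and 518 spanned both levels.

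SCD5, a second desaturase, was the gene whose calls against the control times had opposite signs. It read 1018, 1453 and 1336 at 3 h, 5132, 5544 and 3244 at 24 h and 3813, 5362 and 4566 at 48 h without sarin, and 2987, 2223 and 2600.5 with sarin at 24 h. The sarin arrays were thus 1.04 ± 0.18 above the 3 h controls (log2, adjusted p = 0.00333) and differed by -0.81 ± 0.18 from the 48 h controls (adjusted p = 0.0107), which gave 0.12 ± 0.15 against both (adjusted p = 0.675).

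**Figure D5:**
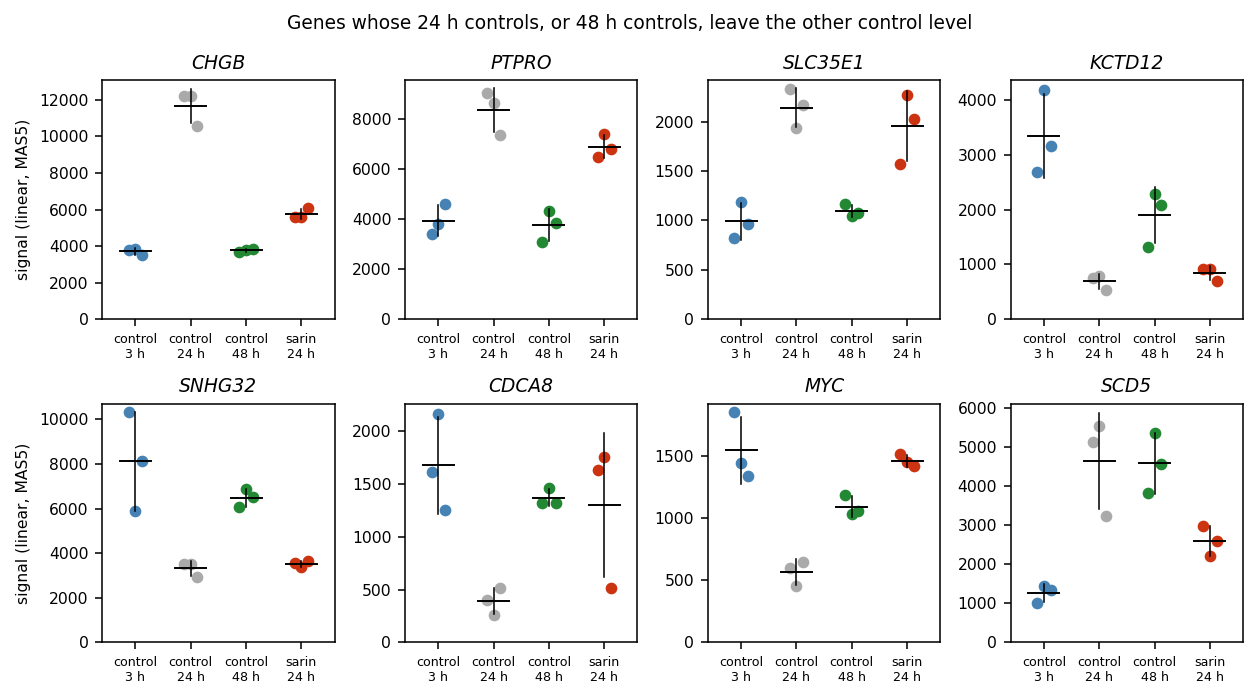
Linear signal of 8 genes on each array of the 3 h, 24 h and 48 h controls and 24 h sarin, with points for arrays and black bars for the mean and SD (n = 3). CHGB, PTPRO and SLC35E1 were high and KCTD12, SNHG32, CDCA8 and MYC low on the 24 h controls, and SCD5 was low on the 3 h controls.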

How the data were processed

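Untreated and sarin-exposed SH-SY5Y cells were measured on 18 arrays of 22283 probe sets, 3 per group, per the labels. The deposited values are linear signal intensities that the submitters' processing notes credit to MAS5; no version or scaling target is given in the sources used here. The number of arrays limits the precision.

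Probe sets naming 1 gene (19065) gave 11963 genes, each read by its brightest probe set, by mean log2 signal over the arrays of the 3 control groups and 24 h sarin; the upper 60% (7178) were tested. Log2 signals were fitted by group in limma 3.58.1 (R 4.3.3; lmFit, eBayes with trend) on the 9 arrays compared, and on the 9 control arrays for the 24 h controls. Tests were two-sided, with Benjamini-Hochberg adjustment over all genes tested and a threshold of 0.05. An error after ± is the SE of a log2 difference. Background was the 90th percentile of an array's 27 unspiked bacterial probe sets, and groups with no array above it count as not above background. The script was tested on simulated data.

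Genes named are the 12 largest non-overlapping differences in each direction, up to 4 called members of each of 40 lists (2 by smallest p where none was called), the 8 largest departures of the 24 h controls in each direction, genes whose sign turned against those controls, and a fixed set of markers. SCD5, list members given by name alone and the genes in the last section were named after their values were seen. The members and lists were chosen with earlier results of these data known. Replicate numbers were not taken as pairs, since the labels do not say that they mark pairs. Correlations between arrays of different groups were taken on each array's deviations from its group mean. They were 0.00 to 0.30 for the 9 same-numbered pairs and -0.37 to 0.16 for pairs with different numbers. Deviations within a group cancel out, so these correlations are not independent of one another. Alternatives were pseudocounts of 16 and 64, the filter, quantile normalization, median and spike-in centring, averaged probe sets, no trend, array weights, other sets of arrays, the replicate block, and each array left out in turn. Sarin arrays of 3 h and 48 h entered only such alternatives.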

Additional observations from a re-analysis of the deposited data

Results flagged for a closer look

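For 9 genes past the threshold against the 3 h and 48 h controls, the 24 h controls departed from those controls far enough that the sign turned against them. The difference itself was tested in each case, as the 24 h controls minus the 3 h and 48 h controls (limma, adjusted p). It was 1.64 for CHGB (1.23e-05), 1.13 for PTPRO (0.00394), 1.05 for SLC35E1 (0.0064), 0.79 for SLC6A2 (0.0237) and 0.63 for MTHFD2 (0.0304), all of which were higher with sarin than at the other times. Against the 24 h controls the same sarin arrays differed by -1.02, -0.27, -0.14, -0.12 and -0.08. The difference was -1.85 for KCTD12 (0.000629), -1.58 for BCAT1 (0.0275), -1.11 for SNHG32 (0.00709) and -0.88 for EPAS1 (0.0275), which were lower with sarin than at the other times. Against the 24 h controls these differed by 0.28, 0.40, 0.09 and 0.14. BCAT1, a cytosolic branched-chain aminotransferase, differed by -1.18 ± 0.23 (SE) from the other-time controls (adjusted p = 0.00459), and its sarin arrays overlapped them. The sarin differences from the 24 h controls were not themselves tested, and several were small. Over all genes tested such a turn of sign was found for 17, 12 of them higher and 5 lower with sarin. In these both the sarin difference and the departure of the 24 h controls passed. Both tests share the 3 h and 48 h controls. Of the 9, the departures of CHGB and KCTD12 passed without each single array, and those of the other 7 did not pass without at least 1 of the 24 h controls (adjusted p up to 0.142). With spike-in centring those of CHGB, PTPRO, SLC35E1, SLC6A2, MTHFD2 and EPAS1 did not pass, and with median centring that of MTHFD2 did not. SCD5 differed by 1.85 between the 48 h and 3 h controls (adjusted p = 0.000273), so that its sarin arrays lay 1.04 above the one and differed by -0.81 from the other.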

How the results depend on the processing

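The 1042 genes of 24 h sarin against 3 h and 48 h controls became 835 to 1299 under the other settings except array weights (1934) and spike-in centring (754), and 385 to 1299 with 1 array left out. Like totals can hold different genes. With averaged probe sets 994 genes passed, 756 of the 1042 among them, and 18 of the 1042 changed sign. With all 18 arrays 797 of the 1042 passed, and with spike-in centring 518. Against 3 h controls the count was 3363 with spike-in centring and 231 to 964 with 1 array left out, and against 48 h controls 135 with spike-in centring, 2327 with array weights and 322 to 1298 with 1 array left out. For the 24 h controls, 56 genes became 30 with no level filter, 626 with median centring, 13 with spike-in centring, 584 with array weights, 144 with all 18 arrays, 302 with 15 arrays and 4 to 269 with 1 array left out. With the replicate block the 4 counts were 1250, 934, 1010 and 96. The labels do not say that numbers mark pairs. In deviations from group means 7 of 9 arrays correlated best with an array of their own number, a hint from the data, not the design. Of 114 genes named past the threshold, 0 changed sign under any of these settings, 87 passed without each of the 9 arrays and 72 under every other setting; with spike-in centring 31 of the 53 higher and 0 of the 61 lower did not pass. Calls of named genes were also lost with averaged probe sets for CAMK2G, CCT8, GAL, HSPA9, PLCB1, SCD, SLC35E1, STIP1 and VCL, with no level filter for ACACA, ADM, CBFA2T2, CLDN15 and MBTPS2, with no trend for ACACA and CBFA2T2, with all 18 arrays for HACD3, INSIG2, MBTPS2 and SF3B2, with the 6 controls as 1 group for CBFA2T2, DBH, DDIT4, FDPS, INSIG2 and MTHFD2, and with spike-in centring for CBFA2T2 and CLDN15 beside those named with their values. Calls were gained under at least 1 setting for VIM, CHRM3, CHRNB1 and HMOX1. Signs turned only for named genes that did not pass: with spike-in centring CHRNA3 (-0.29), MYC (-0.17), PNPLA6 (-0.10) and SCD5 (-0.23), with median centring CDKN1A (0.046), and with 1 array left out CDCA8 (-0.70 to 0.18), CDKN1A (-0.16 to 0.11) and CHRNA3 (-0.011 to 0.18). The causes were not tested. Signal over background limits ACHE, FOS and TH.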

Other observations

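Further genes past the threshold lay outside the gene lists and were chosen after their values were seen. RRS1, RRP9, NOL11 and MPHOSPH10 are known from ribosomal RNA processing. They were picked among called genes; no list of such genes was fixed or tested, and how many others did not pass was not counted. RRS1 read 3554, 3332 and 2429 with sarin, 1879, 1478 and 969 at 3 h and 1382, 818 and 871 at 48 h, a log2 difference of 1.38 ± 0.22 (SE, adjusted p = 0.00137). RRP9 rose by 1.27 ± 0.24 (adjusted p = 0.00441), NOL11 by 1.18 ± 0.20 (adjusted p = 0.00227) and MPHOSPH10 by 1.08 ± 0.17 (adjusted p = 0.00114). All 3 sarin arrays were above all 9 control arrays for each of these genes.

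CXCR4, a chemokine receptor, read 1731, 1428 and 1438 with sarin, 3869, 2732 and 6009 at 3 h and 4411, 3572 and 4477 at 48 h, a log2 difference of -1.41 ± 0.20 (adjusted p = 0.000648). NID1, nidogen of basement membranes, differed by -1.50 ± 0.21 (adjusted p = 0.000709), and ITGA1, a collagen-binding integrin subunit, by -1.23 ± 0.26 (adjusted p = 0.00838, and 0.0622 without sarin replicate 2). These lay below all 9 controls.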
